A study of Mus musculus with 8 samples.

Results

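The genes described here are the subunits of the transcription factor NF-κB and the genes through which it feeds back on itself: Nfkb1, Nfkb2, Rel, Relb, Nfkbia, Nfkbie, Tnfaip3, Bcl3, Icam1 and Tnf. They were followed in cultured mouse splenocytes of 3 p53 genotypes. All probes whose annotated gene symbol was one of these 10 names were taken from a table of 24613 probes. There were 10 such probes for 9 of the 10 genes, Nfkbie having 2 and every other gene 1. Nfkb1 had no probe in the table that names them and was not analysed here. The 9 measured genes were among 7456 genes tested.

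RNA came from spleen cells of C57BL/6 mice aged 5 to 6 weeks, 4 spleens being pooled. It was hybridised to 8 Illumina beadchip arrays, which carry 1 colour. Cells of Δ122p53 mice, which make a p53 that lacks its N-terminal end, were measured after amsacrine and as a control, on 1 array each. Cells of p53-null mice (p53-/-) were measured after amsacrine (1 array), after irradiation (1 array) and as controls (2 arrays). Wild-type (WT) cells were measured after amsacrine and as a control, on 1 array each. Amsacrine, a topoisomerase II poison that leaves DNA double-strand breaks, was given at 1 µg per mL for 5 hours against a carrier of 30% ethanol. Irradiation was a pulse of 4 Gy of gamma rays against untreated cells, and how long after irradiation the cells were harvested is not stated. The labels do not say which of the p53-null controls had received the carrier and which was untreated, nor whether they came from separate pools of cells. Each group other than the p53-null controls is thus a single pool on a single array.

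NF-κB dimers rest in the cytoplasm bound to inhibitor proteins of the IκB family. Receptors of innate and adaptive immunity, and DNA double-strand breaks through the kinase ATM, activate the IκB kinase complex, which marks the inhibitors for destruction and frees the dimers to enter the nucleus. There NF-κB switches on inflammatory genes and also its own inhibitors, so that these feedback genes are widely read as a record of its activity. In the spleen the pathway governs the survival and activation of B cells, T cells and macrophages.

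A probe was called detected at a detection p under 0.01, which 7710 to 8633 probes passed on each array (31.3% to 35.1%). Levels are background-corrected, quantile-normalised intensities on the log2 scale, and a difference of 1 is 2-fold. Probes differ in their response, so levels are compared between arrays and not between genes. Trp53 had no probe in the table, so the genotype labels were not checked against the gene they name. The spleen labels were set against lineage markers: 7 to 9 of 9 T cell markers and 5 to 7 of 9 B cell markers were detected on every array, with Pax5 and Cr2 below detection on all of them, and 1 of 7 stromal and endothelial markers was. In pooled cells a fall in the number of cells that express a gene and a fall in its RNA per cell cannot be told apart.

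The subunits come first. Nfkb2 encodes p100, the precursor of p52 and the core of the non-canonical pathway. Its level was 7.57 on the Δ122p53 amsacrine array and 7.11 on the Δ122p53 control. On p53-null arrays it was 7.48 after amsacrine and 8.26 after irradiation, against 6.26 and 7.49 on the controls. On WT arrays it was 7.54 after amsacrine and 7.48 in the control. The irradiated array was the highest of the 8 and p53-null control 1 the lowest, and the remaining arrays lay between the p53-null controls or just above control 2.

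Relb encodes RelB, the usual partner of p52. Its level was 9.12 after amsacrine and 8.90 in the control for Δ122p53. The p53-null arrays gave 9.32 after amsacrine and 8.88 after irradiation, against 7.95 and 8.32 in the controls. The WT arrays gave 9.29 after amsacrine and 8.24 in the control. All treated arrays lay above the p53-null and WT controls, while the Δ122p53 control lay among the treated arrays.

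Rel encodes c-Rel, the subunit best known in activated lymphocytes. It was near the limit of detection and was detected on 4 of the 8 arrays. It was not detected on the Δ122p53 amsacrine array (level 4.88), against a detected 6.10 on the Δ122p53 control. In p53-null cells it was detected after amsacrine (6.12) and after irradiation (6.59) and not detected on either control (5.15 and 5.53). In WT cells it was not detected after amsacrine (5.46), against a detected 6.61 in the control. Treated arrays were thus the dimmer ones in Δ122p53 and WT cells and the brighter ones in p53-null cells.

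Among the inhibitors, Nfkbia encodes IκBα, the classical rapid feedback inhibitor. Its level was 7.51 after amsacrine and 7.13 in the control for Δ122p53. In p53-null cells it was 7.56 after amsacrine and 8.84 after irradiation, against 6.46 and 8.37 in the controls. In WT cells it was 7.60 after amsacrine and 8.70 in the control. The 3 amsacrine arrays were nearly level with each other, between the p53-null controls.

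Nfkbie encodes IκBε, a slower inhibitor that acts mainly on dimers holding RelA or c-Rel. On the brighter of its probes the level was 11.16 after amsacrine and 10.43 in the control for Δ122p53. In p53-null cells it was 11.22 after amsacrine and 10.004 after irradiation, against 9.89 and 9.28 in the controls. In WT cells it was 10.32 after amsacrine and 8.91 in the control. Each amsacrine array lay above the control or controls of its genotype, and WT was the lowest genotype in both conditions. The dimmer probe, detected on 5 arrays, gave 7.85 and 6.60 for Δ122p53 after amsacrine and in the control. It gave 7.24 after amsacrine and 5.67 after irradiation in p53-null cells, against 6.52 and 5.58 in the controls, and 6.66 after amsacrine and 5.35 in the control in WT cells. The irradiated array, p53-null control 2 and the WT control were below detection on that probe, and the amsacrine arrays were again above the controls of their genotype.

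Tnfaip3 encodes A20, the ubiquitin-editing enzyme that shuts off signalling upstream of the IκB kinases. Its level was 10.37 after amsacrine and 10.25 in the control for Δ122p53. Among p53-null arrays it was 11.04 after amsacrine and 10.19 after irradiation, against 8.33 and 11.61 in the controls. Among WT arrays it was 10.92 after amsacrine and 10.97 in the control. The lowest and the highest of the 8 arrays were the p53-null controls, so their gap covered every other array.

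Bcl3 encodes a nuclear IκB protein that binds p50 and p52 dimers on DNA. Its level was 7.94 after amsacrine and 7.82 in the control for Δ122p53. The p53-null values were 7.56 after amsacrine and 8.25 after irradiation, against 6.96 and 7.10 in the controls. The WT values were 7.04 after amsacrine and 6.70 in the control. The irradiated array was highest, both Δ122p53 arrays followed, and the WT control was lowest.

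Of the target genes, Icam1 encodes the adhesion molecule that binds the leukocyte integrin LFA-1. Its level was 12.16 after amsacrine and 10.99 in the control for Δ122p53. For p53-null cells the level was 10.80 after amsacrine and 10.49 after irradiation, against 10.59 and 10.24 in the controls. For WT cells the level was 10.70 after amsacrine and 9.64 in the control. The Δ122p53 amsacrine array stood 1.17 above the next array, and the WT control was lowest.

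Tnf encodes tumour necrosis factor, which is both a target and an activator of NF-κB. Its level was 7.43 after amsacrine and 7.89 in the control for Δ122p53. In p53-null cells it was 5.96 after amsacrine and 5.97 after irradiation, against 6.79 and 6.61 in the controls. In WT cells it was not detected after amsacrine (5.72) and was 6.00 in the control. Both Δ122p53 arrays lay above all 6 others. In Δ122p53 and p53-null cells the treated arrays lay below their controls, while in WT cells, with the amsacrine array undetected, the order is not settled.

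**Figure D1:**
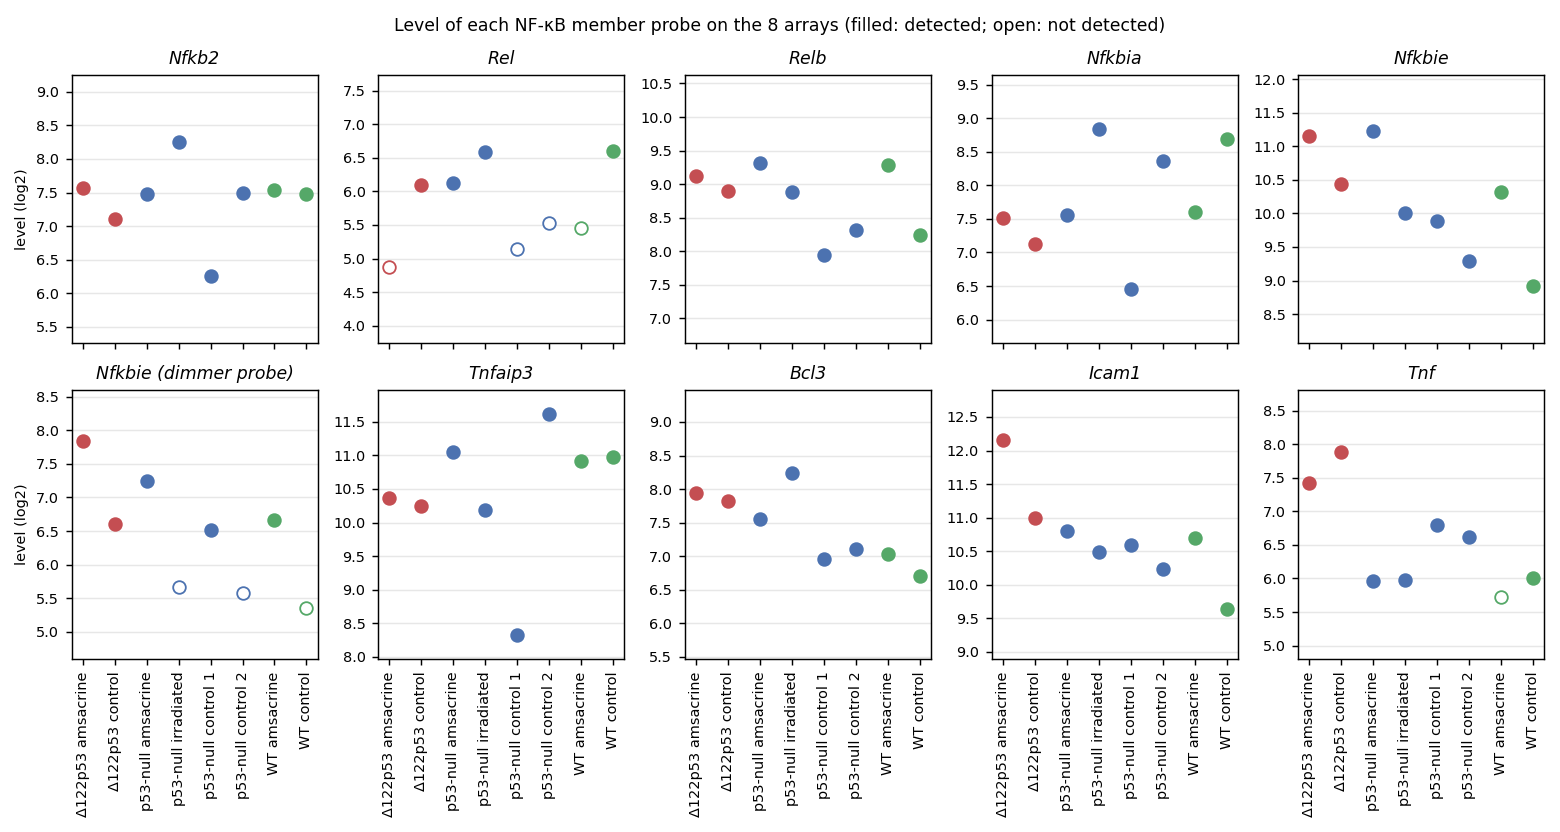
Level (log2) of each of the 10 probes on the 8 arrays, 1 point per array, with filled points for detected and open points for undetected probes; each panel spans 4 log2 units. Both Δ122p53 points are the highest for Tnf, and the p53-null control points are the lowest and the highest for Tnfaip3.

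The first comparison asked how genotype set these genes apart. Across control and amsacrine arrays, Δ122p53 cells held more Tnf, Icam1 and Bcl3 RNA than WT cells. Tnf was 3.46-fold higher, Icam1 2.65-fold and Bcl3 2.01-fold. Tnf was also 2.45-fold higher in Δ122p53 than in p53-null cells. Of the subunits, Nfkb2, Relb and Rel were not called in any genotype comparison. Rel was near the limit of detection, and Nfkb1 was not measured.

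These values come from limma with genotype and amsacrine as additive terms, fitted to the 7 unirradiated arrays, with p adjusted over all 7456 genes and a threshold of 0.05. Of the 9 genes, 3 were called higher and 0 lower in Δ122p53 than in WT. Over all genes 6.61% were called higher and 7.62% lower. Control and amsacrine arrays of a genotype serve here as its replicates; the labels do not say that they came from separate pools, so each genotype may be 1 pool of cells and the p-values measure only the spread between arrays. The log2 differences were 1.79 ± 0.24 for Tnf (SE, adjusted p 0.00904), 1.41 ± 0.30 for Icam1 (adjusted p 0.0294) and 1.01 ± 0.24 for Bcl3 (adjusted p 0.0387). The size for Tnf is not exact, since 1 of the 2 WT arrays was below detection. Nfkbie came next at 1.18 ± 0.33 (adjusted p 0.061), and its dimmer probe, undetected on the WT control, gave 1.22 ± 0.34 (adjusted p 0.0566). The other 5 genes lay between -0.82 ± 0.64 (Nfkbia) and 0.24 ± 0.32 (Relb). The median over the 9 genes was 0.24, against -0.15 over all genes.

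The direction held in both conditions. Tnf was higher in Δ122p53 than in WT by 1.70 ± 0.38 on the amsacrine arrays and by 1.88 ± 0.38 on the controls. Because Tnf was undetected in WT cells after amsacrine, the first of these is a bound of at least 2.60-fold. For Icam1 the differences were 1.46 ± 0.40 on amsacrine arrays and 1.35 ± 0.40 on controls, and for Bcl3 0.90 ± 0.38 and 1.11 ± 0.38. Within a single condition, with 1 array on each side, none of the 3 passed the threshold in limma (adjusted p 0.0743, 0.114 and 0.244 on amsacrine arrays, 0.064, 0.116 and 0.145 on controls). The sizes also depended on the processing: fitted to the authors' deposited normalised values, Tnf differed by 0.71 ± 0.10 (adjusted p 0.0237) and Bcl3 by 0.50 ± 0.10 (adjusted p 0.0442). Over all alternatives tried, the adjusted p ran from 0.00793 to 0.0743 for Tnf, from 0.0223 to 0.116 for Icam1 and from 0.0314 to 0.244 for Bcl3.

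Against p53-null cells, 1 of the 9 genes was called higher in Δ122p53 and 0 lower, where 4.75% of all genes were called higher and 3.58% lower. That gene was Tnf, at 1.29 ± 0.23 (adjusted p 0.0202), with 1.47 ± 0.38 on amsacrine arrays and 1.18 ± 0.33 on controls. The call was lost without either p53-null control (adjusted p 0.0525 and 0.068, in a range from 0.0185 to 0.139 over the alternatives). Icam1 differed by 0.90 ± 0.28 (adjusted p 0.103) and Bcl3 by 0.61 ± 0.22 (adjusted p 0.154). Between p53-null and WT cells limma called 0% of all genes. Before adjustment 773 genes had a p under 0.05, and 1 of the 9 did, Nfkbie, at 0.73 ± 0.31 (adjusted p 0.471). Tnf, Icam1 and Bcl3 differed there by 0.50 ± 0.23, 0.51 ± 0.28 and 0.39 ± 0.22, so that for each of the 3 the additive model put Δ122p53 highest, p53-null next and WT lowest, the difference between the last 2 not passing the threshold.

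Other cells and programmes differed between the same arrays. All 10 measured erythroid markers were detected on both Δ122p53 arrays (summed level 75252 after amsacrine and 81782 in the control), against 3 or 4 on p53-null arrays (9474 to 27666) and 3 or 5 on WT arrays (37369 and 14943). Epor, Gata1, Rhag, Hemgn and Trim10 were below detection outside Δ122p53. Of 12 interferon response genes, 10 and 9 were detected in Δ122p53 (38810 and 20688), against 5 to 7 on p53-null arrays (1890 to 4753) and 5 and 6 on WT arrays (2862 and 4351). Macrophage markers were lower, with 6 and 5 of 10 detected in Δ122p53 (3122 and 2734), against 8 or 9 on p53-null arrays (3779 to 14461) and 8 and 9 on WT arrays (3237 and 11395). C1qa and C1qc were below detection in Δ122p53 alone. T cell markers summed to 8281 and 11804 in Δ122p53, against 19288 to 33565 on p53-null and 20201 and 29342 on WT arrays, and Cd4 was below detection in Δ122p53 alone. In the additive model neutrophil markers were also lower in Δ122p53, by a median of -1.22 against WT and -0.76 against p53-null cells. NK cell markers were lower by a median of -1.51 and -1.33. Immediate early genes were lower by a median of -1.04 and -0.97. Over all genes the medians were -0.15 and -0.07. The part of these shifts in the higher Tnf, Icam1 and Bcl3 levels was not tested.

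**Figure D2:**
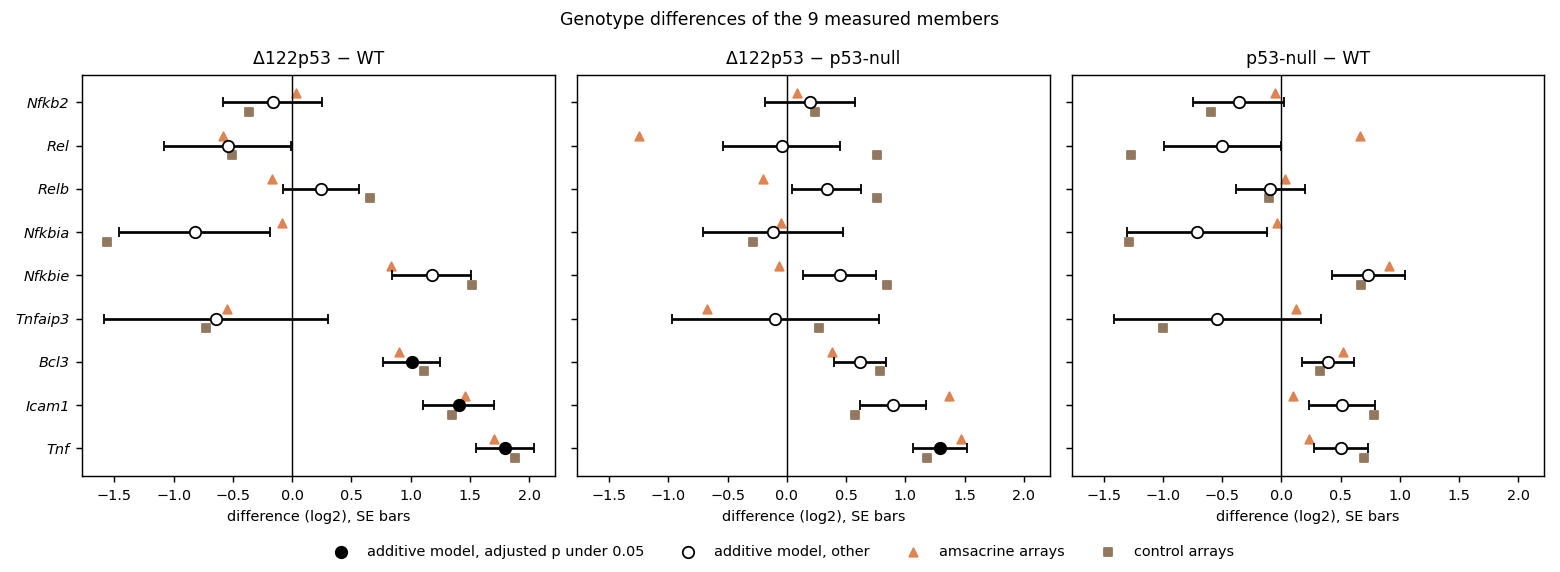
Genotype differences (log2) of the 9 measured genes; circles with SE bars are the additive model, filled where the adjusted p was under 0.05, triangles are amsacrine arrays and squares control arrays. Tnf, Icam1 and Bcl3 are filled in the comparison of Δ122p53 with WT and only Tnf in that with p53-null, while no gene is filled between p53-null and WT.

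The starts of the called genes and of Nfkbie are shown because the κB consensus, the sequence that NF-κB dimers bind, is found close to the start of many feedback genes. RefSeq (build GRCm38.p6) gave windows from 250 bases before to 50 bases after the start for 8 of the 10 genes, all but Nfkb1 and Relb. Capitals mark matches to the κB consensus, searched on both strands, and each sequence runs 5′ to 3′ along the gene's strand.
Tnf, chr17:35201958-35202257, minus strand: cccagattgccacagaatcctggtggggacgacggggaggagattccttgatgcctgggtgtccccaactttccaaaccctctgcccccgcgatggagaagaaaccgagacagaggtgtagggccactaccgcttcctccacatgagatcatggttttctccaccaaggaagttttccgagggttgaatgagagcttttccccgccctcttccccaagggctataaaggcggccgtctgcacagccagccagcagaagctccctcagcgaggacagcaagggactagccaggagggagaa
Icam1, chr9:21015690-21015989, plus strand: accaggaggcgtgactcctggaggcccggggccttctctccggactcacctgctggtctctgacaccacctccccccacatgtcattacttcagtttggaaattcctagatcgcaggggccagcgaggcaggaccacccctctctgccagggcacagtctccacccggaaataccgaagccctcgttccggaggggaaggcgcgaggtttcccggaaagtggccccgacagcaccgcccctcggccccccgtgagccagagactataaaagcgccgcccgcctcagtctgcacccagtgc
Bcl3, chr7:19822706-19823005, minus strand: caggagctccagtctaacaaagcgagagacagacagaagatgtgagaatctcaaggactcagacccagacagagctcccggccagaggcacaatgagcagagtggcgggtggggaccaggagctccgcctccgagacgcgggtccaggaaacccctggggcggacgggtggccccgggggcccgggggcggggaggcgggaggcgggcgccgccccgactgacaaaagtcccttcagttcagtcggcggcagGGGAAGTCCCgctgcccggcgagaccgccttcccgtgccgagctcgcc
Nfkbie, chr17:45555450-45555749, plus strand: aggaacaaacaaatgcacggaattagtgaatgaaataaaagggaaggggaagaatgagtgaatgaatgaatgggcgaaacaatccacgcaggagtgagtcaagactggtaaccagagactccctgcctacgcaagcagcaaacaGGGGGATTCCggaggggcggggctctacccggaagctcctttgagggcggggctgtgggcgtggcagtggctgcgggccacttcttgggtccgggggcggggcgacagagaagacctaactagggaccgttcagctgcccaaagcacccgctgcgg

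The Bcl3 window held 1 match, which began 3 bases into the transcript, and the Nfkbie window held 1 match 106 bases before the start. The Tnf and Icam1 windows held no capitals, which says only that the consensus letters are not in these windows. Of the 8 genes with a window, 6 held a match: Nfkb2, Rel, Nfkbia, Nfkbie, Tnfaip3 and Bcl3. Over 27025 genes with a window, 9.55% held one. In Nfkb2 a pair of overlapping matches began 39 and 38 bases before the most upstream start listed and another 11 bases before it. In Tnfaip3 matches began 125 and 12 bases before the most upstream start, in Rel an overlapping pair began 92 and 91 bases before it, and in Nfkbia 29 bases before. Of the genes called between genotypes, Bcl3 held a match and Tnf and Icam1 did not, while Nfkb2, Rel, Nfkbia, Nfkbie and Tnfaip3, not called, held one. Sites outside these windows, or unlike the consensus at any base, were not searched. Whether κB sites bear on the genotype differences was therefore not tested.

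The second comparison asked how amsacrine changed these genes in each genotype. Nfkbie was higher after amsacrine in all 3 genotypes and on both of its probes. With the p53-null controls averaged, Relb, Icam1, Bcl3 and Nfkb2 were also higher in all 3, by differing amounts. None of these responses passed the threshold, and none of the differences between genotypes in response did. The spread in each single response came from the p53-null control pair alone, the lone arrays being assumed to vary like that pair. The p-values then measure only the spread between those arrays, which may be technical. That spread may also hold a difference between carrier and untreated cells, which cannot be told apart from it.

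In Δ122p53 cells 1 of the 9 genes was at least 2-fold higher and 1 at least 2-fold lower after amsacrine, where 3.38% of all genes were that much higher and 3.97% that much lower. In p53-null cells the counts were 3 higher and 0 lower, against 6.09% and 8.41% of all genes. Against control 1 alone, 5 of the 9 were at least 2-fold higher, and against control 2 alone 1 was, Nfkbie. In WT cells they were 3 higher and 2 lower, against 9.75% and 12.2% of all genes. These counts take Rel, the lower gene in Δ122p53 and 1 of the 2 lower genes in WT cells, at its measured level, although it has only a bound there. Limma called 0% of all genes in Δ122p53 and in WT and 0.134% in p53-null cells, none of them among the 9. At an unadjusted p under 0.05 stood 2 of the 9 genes in Δ122p53, 2 in p53-null and 4 in WT cells, against 512, 1285 and 1467 of all genes. The medians over the 9 genes were 0.22 in Δ122p53, 0.61 in p53-null and 0.06 in WT cells, against 0.00, 0.02 and 0.05 over all genes.

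The Nfkbie response was 0.72 ± 0.45 in Δ122p53, 1.64 ± 0.39 in p53-null and 1.41 ± 0.45 in WT cells (SE; limma adjusted p 0.924, 0.132 and 0.19). On its dimmer probe the response was 1.24 ± 0.55 in Δ122p53 cells. It was 1.19 ± 0.47 in p53-null cells, where 1 of the 2 controls was undetected, and at least 1.80-fold higher in WT cells, where the control was undetected. As an effect shared by the genotypes in the additive model, Nfkbie was 2.45-fold higher after amsacrine, at 1.29 ± 0.26 (limma adjusted p 0.058), and its dimmer probe, with 2 of the 4 controls undetected, gave 1.24 ± 0.26 (adjusted p 0.0706). When only genes detected on all 8 arrays were tested, the first of these passed the threshold (adjusted p 0.0359, in a range from 0.0359 to 0.125 over the alternatives). In that model 2.07% of all genes were called and 0 of the 9, with 4 of the 9 and 1863 of all genes at an unadjusted p under 0.05.

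Relb followed at 0.86 ± 0.25 in the shared effect (limma adjusted p 0.106), with 0.22 ± 0.41 in Δ122p53, 1.19 ± 0.35 in p53-null and 1.05 ± 0.41 in WT cells. Icam1 was at 0.82 ± 0.23 (adjusted p 0.102), with 1.17 ± 0.40 in Δ122p53, 0.38 ± 0.35 in p53-null and 1.06 ± 0.40 in WT cells. Tnf was at -0.52 ± 0.19 (adjusted p 0.158), with -0.46 ± 0.38 in Δ122p53 and -0.75 ± 0.33 in p53-null cells. In WT cells Tnf was undetected after amsacrine and its control level lay below the lowest detected signal of that array (6.05), so no direction can be given there. Bcl3, Nfkb2 and Tnfaip3 were at 0.35 ± 0.18, 0.40 ± 0.32 and 0.45 ± 0.73, and Nfkbia was at -0.15 ± 0.50.

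Rel did not run the same way in the 3 genotypes. It was at least 1.24-fold lower after amsacrine in Δ122p53 cells, at least 1.23-fold higher in p53-null cells and at least 1.47-fold lower in WT cells, each a bound because 1 side was not detected. These bounds take the detected level as measured and make no allowance for spread between arrays. The differences between these responses rest on undetected levels and have no exact size. As fitted by limma they were -2.01 ± 0.54 for Δ122p53 minus p53-null (adjusted p 0.484) and 1.93 ± 0.54 for p53-null minus WT (adjusted p 1), and with the authors' deposited normalised values -0.49 and 0.51, with neither called. In each of the 3 differences between amsacrine responses 0% of all genes were called. Before adjustment a p under 0.05 was found for 622 genes in Δ122p53 minus p53-null, 804 in Δ122p53 minus WT and 113 in p53-null minus WT. Of the 9 genes only Rel, at its undetected levels, was below that level in any of the 3.

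Marker lists and other programmes also moved with amsacrine. The summed level of 9 B cell markers was 8928 in Δ122p53, 12640 in p53-null and 8971 in WT cells after amsacrine, against 18842 in the Δ122p53 control, 26206 and 22653 in the p53-null controls and 26251 in the WT control. Cd22 was below detection on the amsacrine arrays alone. T cell markers summed to 8281 in Δ122p53, 21278 in p53-null and 20201 in WT cells after amsacrine. Their controls gave 11804 in Δ122p53, 33565 and 31007 in p53-null and 29342 in WT cells. Neutrophil markers summed to 9376 in Δ122p53, 9998.5 in p53-null and 20205 in WT cells after amsacrine. Their controls gave 12124 in Δ122p53, 14639 and 35848 in p53-null and 28725 in WT cells. Macrophage markers summed to 4390 in p53-null and 3237 in WT cells after amsacrine, against 14461 and 12055 in the p53-null controls and 11395 in the WT control, with 3122 and 2734 in Δ122p53. Immediate early genes were lower in 10 of 10 in p53-null (median -1.26) and in 10 of 10 in WT cells (median -1.32), and in 3 of 10 in Δ122p53 (median 0.25). Their summed level was 6705, 8856 and 9194 after amsacrine in Δ122p53, p53-null and WT cells, against 7243 in the Δ122p53 control, 15242 and 35815 in the p53-null controls and 25631 in the WT control. Interferon response genes were higher in 10 of 10 in Δ122p53, 9 of them at least 2-fold (median 1.54, summed level 38810 after amsacrine and 20688 in the control), in 2 of 10 in p53-null (median -0.44) and in 4 of 10 in WT cells (median -0.10). None of these immediate early or interferon genes was called by limma in a single response. The part of all these shifts in the responses was not tested.

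**Figure D3:**
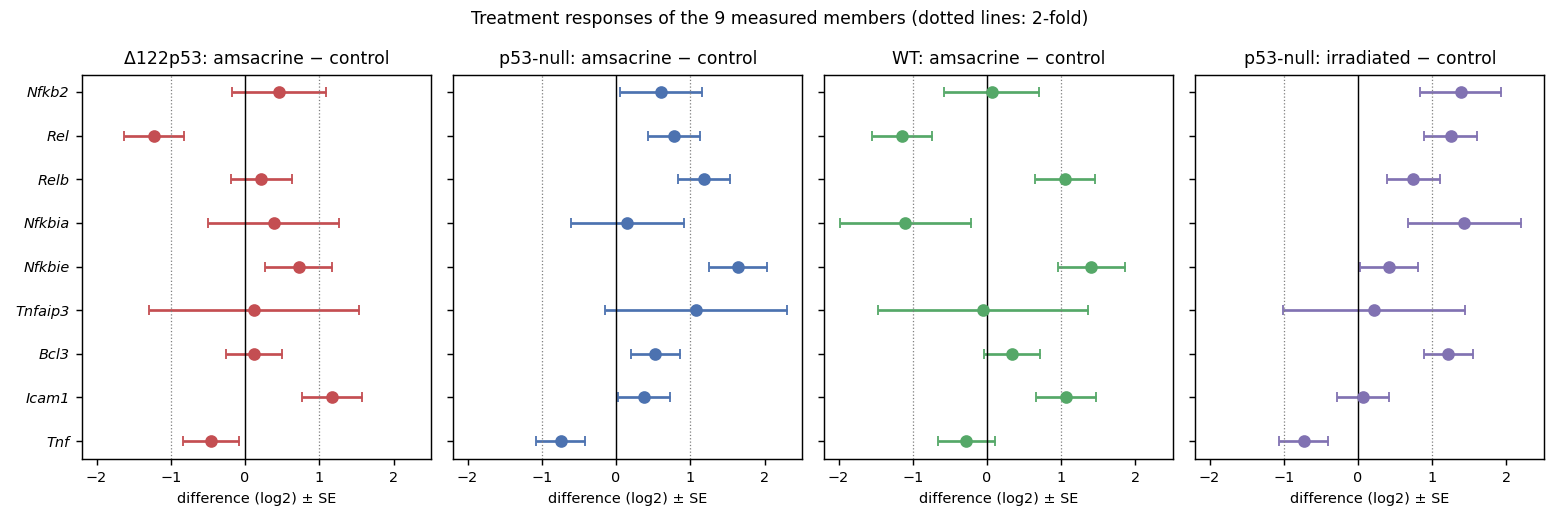
Response (log2 difference ± SE) of the 9 measured genes to amsacrine in each genotype and to irradiation in p53-null cells, with dotted lines at 2-fold. Nfkbie, shown on its brighter probe only, lies right of 0 in all 4 panels. Rel in every panel and Tnf in WT include undetected levels, so their sizes are not exact. The widest bars, ± 1.23 to ± 1.42, belong to Tnfaip3.

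The third comparison asked how irradiation changed these genes in p53-null cells, the only irradiated genotype. The irradiated array held more Bcl3, Nfkb2, Nfkbia and Rel RNA than the mean of the controls, at 2.32-fold, 2.60-fold, 2.70-fold and at least 1.70-fold, and none of these differences passed the threshold. In all, 4 of the 9 genes were at least 2-fold higher and 0 at least 2-fold lower, where 5.53% of all genes were that much higher and 5.51% that much lower. Against control 1 alone 5 were at least 2-fold higher and 0 lower, and against control 2 alone 2 were higher (Rel and Bcl3) and 1 lower (Tnfaip3). Rel is counted here at its measured level too, and the other 3 of the 4 were detected on every array. Limma called 0% of all genes, with 3 of the 9 genes and 1037 of all genes at an unadjusted p under 0.05.

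Bcl3 gave 1.22 ± 0.33 (SE, limma adjusted p 0.235) and Rel 1.25 ± 0.35 (adjusted p 0.243). Nfkb2 gave 1.38 ± 0.55 (adjusted p 0.357) and Nfkbia 1.43 ± 0.76 (adjusted p 0.472). Relb was at 0.75 ± 0.35, Tnf at -0.73 ± 0.33, Nfkbie at 0.42 ± 0.39, Tnfaip3 at 0.21 ± 1.23 and Icam1 at 0.07 ± 0.35. The dimmer Nfkbie probe was undetected on the irradiated array and on control 2 and gave no direction. The median over the 9 genes was 0.75, against 0.04 over all genes. The irradiated array also had a lower summed level of macrophage markers (3779, against 14461 and 12055 in the controls). The same held for T cell markers (19288, against 33565 and 31007), NK cell markers (2647, against 5864 and 6264) and immediate early genes (7024, against 15242 and 35815). B cell markers were lower in 5 of 7, with a median of -0.98. Neutrophil markers summed to 29250, between the controls (14639 and 35848). The part of these shifts was not tested.

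Irradiation and amsacrine were set against the same p53-null controls. The treated arrays differed in several marker lists. After irradiation 11 of 11 neutrophil markers were higher than after amsacrine, 8 of them at least 2-fold (summed level 29250 against 9998.5). So were 6 of 7 B cell markers (21889 against 12640), while 7 of 9 macrophage markers and 5 of 6 NK cell markers were lower. The part of these shifts in the differences that follow was not tested. The irradiated array exceeded the amsacrine array by 1.28 ± 0.88 for Nfkbia, 0.77 ± 0.64 for Nfkb2 and 0.69 ± 0.38 for Bcl3, and was lower by 1.22 ± 0.45 for Nfkbie (unadjusted p 0.037, limma adjusted p 0.452). For Tnf the 2 treated arrays differed by 0.02 ± 0.38. In this difference 0% of all genes were called, with 1 of the 9 and 789 of all genes at an unadjusted p under 0.05. On the dimmer Nfkbie probe, undetected after irradiation, the irradiated array was at least 2.69-fold lower than the amsacrine array (adjusted p 0.45).

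The p53-null controls set the error of all these responses, and several of the feedback genes differed widely between them. Tnfaip3 was 9.72-fold higher in control 2 than in control 1, a wider gap than that of 99.95% of all genes. Nfkbia was 3.77-fold higher (wider than 99.3% of genes) and Nfkb2 2.36-fold (wider than 96.7%). The remaining genes differed by 0.61 or less on the log2 scale, against a median absolute difference of 0.30 over all genes. At least 2-fold higher in control 2 were 3 of the 9 genes, where 4.29% of all genes were that much higher, and 0 were that much lower, where 2.4% of all genes were. With 1 array on each side no test was made. A difference between carrier and untreated cells cannot be told apart here from other differences between these arrays.

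The choice of control therefore set the sign of some responses. For Tnfaip3 the amsacrine array was 2.71 above control 1 and -0.57 relative to control 2, and the irradiated array was 1.85 above control 1 and -1.43 relative to control 2. For Nfkbia amsacrine gave 1.11 against control 1 and -0.81 against control 2, while irradiation gave 2.39 and 0.47. For Nfkb2 amsacrine gave 1.23 and -0.01, and irradiation 2.00 and 0.76. The others kept their sign against either control, apart from Icam1 under irradiation (-0.11 and 0.25). Nfkbie gave 1.33 and 1.94 after amsacrine, Relb 1.37 and 1.00, and Bcl3 1.29 and 1.14 after irradiation.

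**Figure D4:**
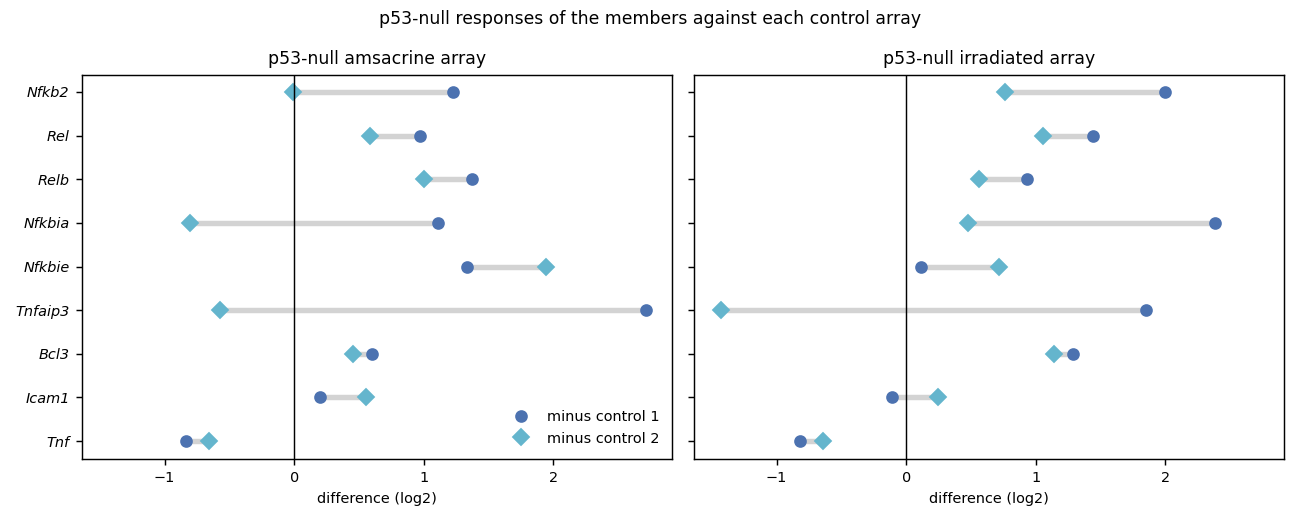
Difference (log2) of the p53-null amsacrine and irradiated arrays from control 1 (circles) and control 2 (diamonds), 1 array on each side of every difference. Tnfaip3 spans 0 in both panels, Nfkbia and, barely, Nfkb2 in the amsacrine panel and Icam1 in the irradiated panel. Relb, Rel, Bcl3, Nfkbie and Tnf stay on 1 side of 0.

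Neutrophil and immediate early genes moved with this gap. All 11 measured neutrophil markers were higher in control 2, 8 of them at least 2-fold, with a median of 1.57 and a summed level of 35848 in control 2, against 14639 in control 1. All 10 tested immediate early genes were higher, 8 of them at least 2-fold, with a median of 1.72 and a summed level of 35815, against 15242. Their part in the gap was not tested. Elane and Cxcr2 were below detection in control 1 and detected in control 2.

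The rest of the pathway was followed in 6 further gene lists, of which some genes stand in more than 1 list. Among the 6 other subunits and inhibitors, which include Rela and Nfkbib, none was called in any comparison by limma. Leaving aside comparisons within a single condition, the 2 with the largest differences were Nfkbiz, an inducible nuclear IκB protein, at -1.15 ± 0.42 after irradiation in p53-null cells (adjusted p 0.326), and Nfkbid, another nuclear IκB protein, at 0.97 ± 0.56 after amsacrine in p53-null cells (adjusted p 0.427). Between the p53-null controls all 6 were higher in control 2, 2 of them at least 2-fold. Of all 7456 genes 3595 were higher there, and 4.29% were at least 2-fold higher.

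Of 31 kinases and adaptors upstream of NF-κB, 22 were tested, and 1 was called higher and 2 lower in Δ122p53 than in WT cells, near the shares over all genes (6.61% and 7.62%). Prkcb, the kinase that links the B cell receptor to NF-κB, fell in Δ122p53 by 1.67 ± 0.23 against WT (limma adjusted p 0.00904) and by 1.74 ± 0.21 against p53-null cells (adjusted p 0.00632), where it was the only gene of the list called. It also fell by 1.45 ± 0.18 after amsacrine across the genotypes (adjusted p 0.0206). Its level was 8.31 after amsacrine and 9.87 in the control for Δ122p53, 10.14 after amsacrine and 10.07 after irradiation against 11.45 and 11.63 in the controls for p53-null, and 10.05 after amsacrine and 11.46 in the control for WT. Every treated array thus lay below its controls, and both Δ122p53 arrays below their counterparts. Map3k8, the kinase Tpl2 that rests on the Nfkb1 product, rose by 1.35 ± 0.28 in Δ122p53 against WT (adjusted p 0.0271), and Traf6, the adaptor of Toll-like and IL-1 receptors, fell by 1.35 ± 0.34 (adjusted p 0.046).

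Of 16 brakes and linear ubiquitin genes, 14 were tested. Rnf11, a partner of A20, rose by 1.46 ± 0.32 in Δ122p53 against WT (limma adjusted p 0.0331) and was the only one of the 14 called in any of the responses, their differences and the additive model's comparisons, against 6.61% of all genes called higher. Of 20 activating receptors, 17 were tested. In Δ122p53, 1 was called higher and 0 lower against WT, where 6.61% and 7.62% of all genes were. Against p53-null cells 0 were called higher and 1 lower, where 4.75% and 3.58% of all genes were. The list was thus near the shares over all genes. Tlr7, the endosomal receptor for single-stranded RNA, rose by 1.74 ± 0.43 in Δ122p53 against WT (adjusted p 0.0438). Cd27, a costimulatory receptor of lymphocytes, fell by 1.76 ± 0.35 in Δ122p53 against p53-null cells (adjusted p 0.0306).

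Of 46 other NF-κB target genes, 36 were tested, and 2 were called higher and 2 lower in Δ122p53 than in WT, with 2 higher and 1 lower against p53-null cells. Over all genes 6.61% and 7.62% were called against WT and 4.75% and 3.58% against p53-null cells, so the list as a whole was near the background. Irf1, a transcription factor of the interferon response, rose by 1.67 ± 0.31 against WT (limma adjusted p 0.0213) and by 1.24 ± 0.29 against p53-null cells (adjusted p 0.048). Its level was 12.08 and 11.88 in Δ122p53 after amsacrine and in the control, and 10.09 to 11.13 on the other 6 arrays. Bcl2l1, which encodes the survival protein Bcl-xL and is abundant in maturing erythroid cells, rose by 2.41 ± 0.57 against WT (adjusted p 0.0394) and by 2.48 ± 0.53 against p53-null cells (adjusted p 0.0376). Vcam1, an adhesion molecule that stands also among the macrophage markers, fell by 3.07 ± 0.48 against WT (adjusted p 0.0134) and fell by 2.23 ± 0.45 against p53-null cells (adjusted p 0.0311). The fourth gene called against WT was Plaur, the urokinase receptor, which fell by 1.66 ± 0.42 (adjusted p 0.046) and is named because its list was counted. The list's median was -0.15 against WT and 0.13 against p53-null cells, with -0.15 and -0.07 over all genes. Between the p53-null controls 15 of the 36 were at least 2-fold higher in control 2 and 0 at least 2-fold lower, with a median of 0.56. Over all genes 4.29% were that much higher and 2.4% that much lower, with a median of -0.02.

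Of 9 genes that link DNA damage to NF-κB, 7 were tested and none was called in any comparison by limma. Again leaving aside comparisons within a single condition, the largest differences were 1.67 ± 0.52 for Peli1, a ubiquitin ligase, in Δ122p53 against WT (adjusted p 0.0778), and -1.39 ± 0.60 for Parp1, a sensor of DNA breaks, in the difference of amsacrine responses of Δ122p53 minus p53-null (adjusted p 0.625).

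Likeness of profiles was described by Pearson's r over the 8 arrays, which share genotype, treatment and normalisation, so no p is given. Among the 9 genes the highest values were 0.84 for Nfkbie with Icam1, 0.83 for Nfkb2 with Nfkbia and 0.78 for Relb with Nfkbie, and the lowest was -0.63 for Rel with Icam1. Over all genes tested, Icam1 was most like Fas (0.98) and Mier3 (0.97), and Tnf most like Hipk1 (0.99) and Fam117a (0.98). Nfkbie was most like Gigyf2 and Ap2b1 (both 0.99), Relb most like Lamb3 (0.99) and Cables1 (0.97), and Bcl3 most like Mfsd2a (0.96) and Trappc13 (0.94). Nfkb2 was most like Serpinb6b (0.99) and Lyar (0.98), Nfkbia most like Ginm1 (0.98) and Atp5d (0.97), and Tnfaip3 most like Pim3 (0.95) and Tnfrsf12a (0.94). For Rel, detected on 4 arrays, they were Llph and Rpl36 (both 0.89). With 7456 genes to choose from and 8 arrays, values this high are those of the best match and not of a typical gene.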

How the data were processed

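The authors deposited a table of probe intensities with detection p-values, non-normalized per the file headers, and a table of values treated here as log2, made with lumi per the submitters' processing notes (version and settings not given in the sources used here), while the origin of the detection p-values is not stated. From the deposited intensities, R 4.3.3 with limma 3.58.1 computed neqc levels (background inferred from detection p-values, offset 16), quantile normalised and on the log2 scale. Of 24613 probes, 20984 had 1 symbol, 1 several and 3628 none. For 20968 the symbol was taken from RefSeq through Entrez identifiers, whether or not it changed. At a detection p under 0.01 on any array, 10273 probes were kept; 1363 of them, without a single symbol, were left out, and the brightest probe per gene left 7456 genes. The 9 measured genes all passed this filter, which a gene can pass on a single array.

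Treatment responses used a limma model of the 7 group means (1 residual degree of freedom, from the p53-null control pair; prior SD 0.292 on 4.78 degrees of freedom). Genotype differences and the shared amsacrine effect used an additive model (3 residual degrees of freedom; prior SD 0.293 on 3.85), in which differing responses count as error. All p-values are 2-sided and Benjamini-Hochberg adjusted across genes; the code was tested on simulated data. Where a gene was undetected on all arrays of 1 side, the difference is a bound against the lowest detected signal. Such a bound makes no allowance for spread between arrays. Genes were named by rule: every probe of the 10 genes, up to 3 called genes per list and comparison (the 2 largest differences in a list with none), and the 2 closest profiles per gene. The 10 genes, the lists and the tests were chosen with earlier results of these data known. The number of arrays limits the precision. Alternatives changed the background correction, normalisation, detection filter, probe choice, variance trend and arrays used.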

Additional observations from a re-analysis of the deposited data

How the results depend on the processing

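Across the alternatives, 168 counts over the 9 genes stayed within 1.5 times their value and 23 did not. The 168 include counts of 0 that remained 0. For single genes, 1246 values moved by no more than 1 SE or kept their call, 60 moved by more with no change of call, 14 lost the threshold, 4 gained it and 2, without a test, reversed. A reversal was counted only where the main difference was called or at least 2-fold. Smaller differences that changed sign were counted as moved or unchanged. An example is Nfkbia after amsacrine in p53-null cells, at 0.15 and, without control 1, at -0.81. The 1246 include settings that leave the difference itself unchanged, such as other detection filters and the variance trend. There a gene not called could not move and could only gain the threshold. Of the counts over all genes, 139 stayed within 1.5 times and 43 did not. The counts of genes at least 2-fold different after amsacrine, 2 in Δ122p53, 3 in p53-null and 5 in WT, became 1, 1 and 1 in the authors' table. With a normexp background of offset 50, and with no background correction, they became 1 in Δ122p53 and 2 in WT; with genes detected on all 8 arrays, 1 in Δ122p53. For irradiation, 4 became 2, 2 and 0 under normexp, no correction and the authors' table, and the control pair's 3 became 1 in that table. Leaving out p53-null control 1 or 2 gave 1 to 5 for p53-null amsacrine. Of genes called, the 3 for Δ122p53 against WT became 1 without control 2, 2 without control 1, and 0 with amsacrine or control arrays alone. The 1 against p53-null became 0 without either control, with either condition alone, and with genes detected on all 8 arrays, where Tnf is not tested; the 0 of the shared effect became 1 there. Icam1 had an adjusted p of 0.0604 with no detection filter and 0.0508 without control 2, and Bcl3 0.0621 and 0.068 without control 1 and 2. Nfkbie passed against WT under cyclic loess (0.0495), with genes detected on all 8 arrays (0.0472) and with probes averaged (0.0499), in a range from 0.0472 to 0.35. Leaving out control 1 or 2, Tnfaip3 ran from -0.57 to 2.71 for p53-null amsacrine and from -0.51 to 2.77 for its difference from WT.

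Over all genes, the 1061 and 621 calls for Δ122p53 against WT and p53-null became 687 and 344 in the authors' table, 654 and 398 with no filter, 636 and 234 without control 1, and 305 and 228 on amsacrine and 231 and 309 on control arrays; the second became 302 without control 2. The 154 of the shared effect became 42 in the authors' table, 93 with no filter and 1 without either control. The all-gene median of Δ122p53 minus WT was -0.15, and -0.07 in the authors' table. The causes were not tested. No paired analysis was possible because only the p53-null controls carry more than 1 replicate number. Without 1 p53-null control the group-means model has no residual degrees of freedom, and its responses are values with no test. Signal near background limits Rel, Tnf and the dimmer Nfkbie probe.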
